A study of Mus musculus with 4 samples.

Results

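Spi1, Cebpa, Runx1, Myb, Ikzf1 and Ikzf2 encode transcription factors that act in several blood lineages at once, and their transcripts were followed through fetal liver progenitors with and without an enhancer of Gata2. They were chosen by name, as 6 of the 3624 genes in the deposited count table. Lin-Sca1-Kit+CD34+ cells had been sorted from livers of C57Bl/6J mouse embryos at E14.5 and profiled by 10x Genomics Chromium single-cell RNA sequencing. The Gata2-77-/- group, libraries A and B, lacked -77, an enhancer that lies upstream of Gata2, and the wild-type group, libraries F and I, carried it. Each letter is the deposited name of a library, the series describes 2 embryos per genotype, and no letter is tied to a sample number. Xist, a transcript of female cells, had 0 UMIs in A and 8171 in B, and 1 in F and 16675 in I. The 2 libraries of each genotype thus differed in this marker of sex and were not from the same embryo. The p-values given measure only the spread between these libraries.

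Spi1 encodes PU.1, an ETS-family factor that opens myeloid and lymphoid enhancers, and C/EBP-alpha, the product of Cebpa, works beside it in granulocyte and monocyte progenitors. RUNX1, with its partner CBF-beta, is needed for the emergence of blood stem cells, and MYB keeps progenitors proliferating and immature. Ikaros (Ikzf1) and Helios (Ikzf2) are zinc finger proteins that bind DNA as dimers and recruit chromatin remodelling complexes, Ikaros in lymphoid and myeloid cells and Helios in stem cells and some T cells.

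Levels are given as CPM, UMIs (unique molecular identifiers, which tag captured transcripts) for a gene per 1000000 UMIs of the table in its library. For a state, both counts are those of the cells of that state in the library. Summed over all cells, libraries A and B held 16837863 and 19921052 UMIs, and F and I held 40117680 and 33913118. The median cell held 7492 UMIs in A and 7087 in B, against 12826.5 in F and 17437.5 in I, so shares of cells with a transcript were compared after every cell had been thinned to 4346 UMIs. Gata2 itself stood at 7.48 CPM in A and 6.73 in B, against 26.3 in F and 23.2 in I. Cells were sorted into states by clustering without the 6 genes. HSPC-like cells carried 7 to 8 markers of multipotent progenitors per cluster, and class names describe marker transcripts, not surface protein. Granulocyte, basophil/mast and erythroid states were nearly empty in Gata2-77-/- libraries: the primary-granule-like state held 42 and 29 cells in A and B, against 433 and 196 in F and I. In these sums, fewer cells of a type and fewer transcripts per cell cannot be told apart.

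Over all cells Myb and Ikzf2 fell in the Gata2-77-/- libraries, Ikzf1 rose slightly, and Spi1, Cebpa and Runx1 did not pass the test. Thus 2 of 6 members were called lower, where 6.1% of the 3622 genes tested were called lower, and 1 was called higher, where 2.76% were. In either direction 8.86% of genes were called. The libraries of the genotypes did not overlap for any of the 6 members, which was also true of 54.1% of all genes tested.

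Myb, on the - strand of chromosome 10 (21124935 to 21160984, mm10), stood at 88.7 and 88.3 CPM in A and B, against 149 and 147 in F and I. Both Gata2-77-/- libraries lay far below both wild-type ones. The mean was 88.5 ± 0.304 CPM in Gata2-77-/- and 148 ± 1.52 in wild type (SD, n = 2 each), a ratio of 0.599. The log2 fold change was -0.79 (SE 0.06, edgeR quasi-likelihood test with Benjamini-Hochberg adjustment, adjusted p = 0.00359), and Myb ranked 17 of 3622 genes by p. At 4346 UMIs per cell, 1.14% and 0.918% of cells in A and B held 3 or more Myb UMIs, against 4.88% and 5.03% in F and I.

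Ikzf2, on the - strand of chromosome 1 (69531214 to 69687245), stood at 25.8 and 22.5 CPM in A and B, against 46.3 and 50.5 in F and I. Again both mutant libraries were below both wild-type ones. The means were 24.2 ± 2.29 and 48.4 ± 2.93 CPM in Gata2-77-/- and wild type (SD, n = 2 each), a ratio of 0.499. The log2 fold change was -1.05 (SE 0.11, edgeR adjusted p = 0.00855).

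Ikzf1, the Ikaros gene, on the + strand of chromosome 11 (11685003 to 11772926), went the other way. It stood at 80.9 and 85.7 CPM in A and B, against 66.8 and 68.4 in F and I. The ratio of means was 1.23 and the log2 fold change 0.25 (SE 0.05, edgeR adjusted p = 0.0410). This call was lost without any one of the 4 libraries: the edgeR adjusted p was 0.163 without A, 0.203 without B, 0.102 without F and 0.107 without I, at log2 fold changes of 0.23 to 0.26. It was lost as well when the sums were made from cells thinned to equal depth (edgeR adjusted p = 0.159), and over all alternatives it ran from 0.00272 to 0.203. The direction was higher in Gata2-77-/- in each of them. Myb and Ikzf2 kept their calls over all cells in every alternative run, with edgeR or DESeq2 adjusted p-values of at most 0.0391 and 0.0407.

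Spi1, on the + strand of chromosome 2 (91082390 to 91115756), stood at 381 and 409 CPM in A and B, against 376 and 377 in F and I (log2 fold change 0.02, SE 0.06, edgeR adjusted p = 0.889). Runx1, on the - strand of chromosome 16 (92601466 to 92826149), stood at 79.9 and 76.5 CPM in A and B, against 72.0 and 73.5 in F and I (0.05, SE 0.07, edgeR adjusted p = 0.672). For both genes the 4 libraries lay within a narrow band. Cebpa, a single-exon gene on the + strand of chromosome 7 (35119293 to 35121928), stood at 34.2 and 38.7 CPM in A and B, against 41.1 and 39.6 in F and I (-0.20, SE 0.08, edgeR adjusted p = 0.221). A p above the threshold does not show equal levels: on simulated data of these libraries the test recovered 79% of genes changed 1.5-fold and 15% of genes changed 1.25-fold.

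**Figure D1:**
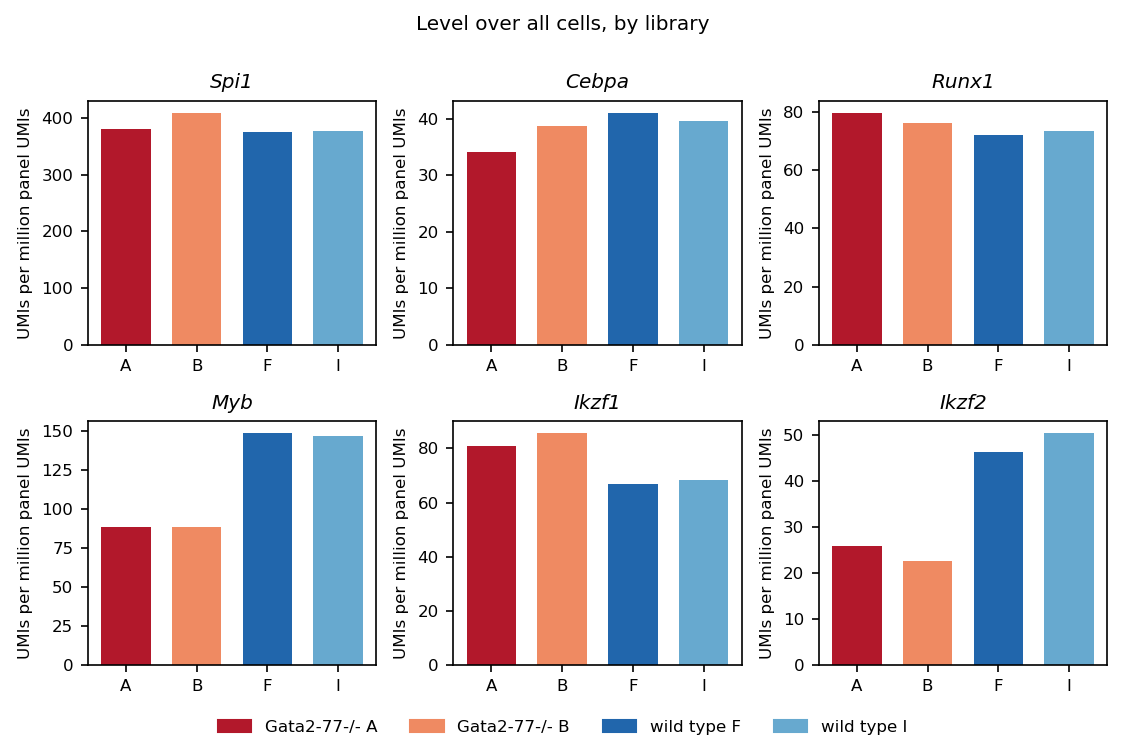
Level of each gene summed over all cells of a library, in CPM of the table's UMIs, with Gata2-77-/- libraries A and B left of wild-type libraries F and I; 1 bar is 1 library. Myb stands at 88.7 and 88.3 in A and B against 149 and 147 in F and I, while Spi1 stands between 376 and 409 in all 4 libraries.

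The starts of Myb and Ikzf1, 2 of the 3 called genes, and of Cebpa are shown because motifs of the factors studied here could be searched in them. Each is the 250 bases before the annotated start, from RefSeq on GRCm38.p6, printed 5′ to 3′ on the strand of the gene, with any match to a searched motif in capitals.
Myb, chr10:21160985-21161234, - strand: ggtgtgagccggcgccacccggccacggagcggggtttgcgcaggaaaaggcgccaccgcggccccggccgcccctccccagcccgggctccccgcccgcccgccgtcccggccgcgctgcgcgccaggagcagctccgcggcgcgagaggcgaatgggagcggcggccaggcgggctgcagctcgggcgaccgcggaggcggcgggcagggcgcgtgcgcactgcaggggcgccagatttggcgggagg
Ikzf1, chr11:11685675-11685924, + strand: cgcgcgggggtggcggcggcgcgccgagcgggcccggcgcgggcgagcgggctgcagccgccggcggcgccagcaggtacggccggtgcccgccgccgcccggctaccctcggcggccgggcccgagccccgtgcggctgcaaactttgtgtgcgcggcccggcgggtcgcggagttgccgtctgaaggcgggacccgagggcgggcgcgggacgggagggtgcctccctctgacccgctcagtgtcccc
Cebpa, chr7:35119043-35119292, + strand: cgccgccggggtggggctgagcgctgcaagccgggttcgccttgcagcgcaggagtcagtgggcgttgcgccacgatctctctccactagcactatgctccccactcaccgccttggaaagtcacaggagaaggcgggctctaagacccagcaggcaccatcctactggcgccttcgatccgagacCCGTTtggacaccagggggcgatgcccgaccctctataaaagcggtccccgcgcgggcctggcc
Of the 6 genes 4 had such windows, and Spi1 and Ikzf2 had none in the table used. The motifs, read on both strands, were those of GATA factors (AGATAA or else TGATAA, with AGATAG or else TGATAG as a variant), the PU-box GAGGAA, RUNX TGTGGT, MYB (AACGG or AACTG), C/EBP (TTGCNNAA) and Ikaros TGGGAA. In the Myb window, 81.2% G or C, and in both Ikzf1 windows no letters matched. The single match in Cebpa was to the MYB motif, which 48.6% of all 32851 windows of this length held. The first of 2 Runx1 starts held 2 MYB matches and the second held 1 PU-box, against 23.3% of windows with a PU-box and 26.5% with a GATA motif. These are matches of letters only.

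With every cell cut to the same depth, the share of cells with a Myb UMI was 29.8% and 31.2% in A and B, against 44.2% and 43.8% in F and I. For Ikzf2 it was 10.0% and 9.53%, against 15.7% and 17.7%. Both genes were therefore detected in fewer cells of the Gata2-77-/- libraries at equal depth, and also at the median depth of 9777 UMIs and without thinning. Ikzf1 was found in 31.0% and 29.9% of cells in A and B, against 24.5% and 25.9% in F and I, and Spi1 in 77.5% and 77.7%, against 74.8% and 71.7%. For these 2 genes and Runx1 the order turned without thinning: 42.6% and 45.0% of cells in A and B had an Ikzf1 UMI, against 53.8% and 63.9% in F and I. For these genes the direction in the cells as deposited was not that at matched depth. Cebpa was found in 13.7% and 16.0%, against 15.3% and 15.1%, and Runx1 in 28.4% and 27.8%, against 25.2% and 27.5%. Each exact two-sided permutation p was 0.333 or higher, and 0.333 is the smallest p that 2 against 2 libraries allow. Thinning left out 855 Gata2-77-/- cells and 140 wild-type cells.

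Background was read in the wild-type erythroid-like cells, whose median depth was 11105 UMIs in F and 9413.5 in I, against 12826.5 and 17437.5 over all cells of these libraries, so shares were read at 4346 UMIs in both. In this state 2 of 49 cells in F and 0 of 35 in I had a Spi1 UMI, and 1 and 0 had a Cebpa UMI. Shares of Spi1 and Cebpa in the whole libraries thus stood above the 4.08% and 2.04% of those F cells. Ikzf1, which erythroid cells are not known to lack, was found in 11 of 49 of these cells in F (exact binomial 95% interval 11.8% to 36.6%) and 7 of 35 in I (8.44% to 36.9%), and its shares in the whole libraries lay within both intervals. Myb was found in 14.3% and 11.4% of them, and Runx1 in 8.16% and 2.86%, below their shares in the whole libraries. No erythroid-like cell in F or I had an Ikzf2 UMI, which allows a share of up to 7.25% in F and 10.0% in I by the exact binomial 95% interval. Intervals cover counting error only.

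**Figure D2:**
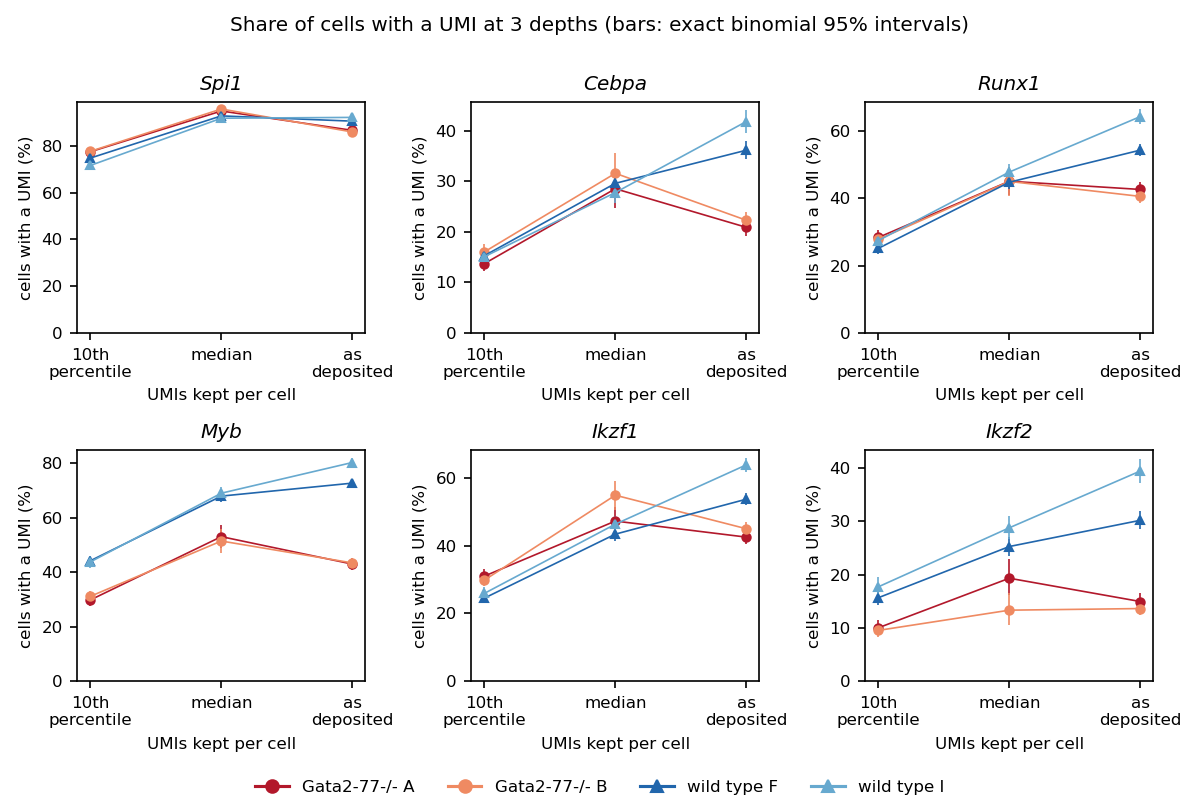
Share of cells (%) with at least 1 UMI of each gene after thinning to the 10th percentile of depth, to the median depth, and as deposited, for Gata2-77-/- libraries A and B (circles) and wild-type libraries F and I (triangles); bars are exact binomial 95% intervals. Myb and Ikzf2 are lower in A and B at each depth, and the order of Ikzf1, Spi1 and Runx1 turns between the first and the last depth.

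The 6 genes were distributed over the states in different ways, and these levels are descriptions, since the states were built from the same cells. Only states with 50 or more cells in both libraries of a genotype were read. The erythroid-like state, with 51 and 36 cells in F and I, stands outside these orders. Myb was highest in wild-type cluster 5, which carried erythroid, megakaryocyte and mast markers and Gata1, at 224 and 241 CPM in F and I, and in the basophil/mast-like, primary-granule-like and cluster 3 states. It was lowest in Csf1r monocyte-like cells, at 32.7 and 31.6 CPM in A and B and 28.5 and 26.3 in F and I. The monocyte end of this order was low in both genotypes.

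Ikzf2 followed a related but sharper order. It stood at 161 and 164 CPM in cluster 5 of F and I, at 93.8 and 91.8 in basophil/mast-like cells, and at 51.4 and 41.7 in HSPC-like cells of A and B against 80.0 and 83.6 in F and I. In Csf1r monocyte-like cells it was down to 6.25 and 6.82 CPM in A and B and 8.26 and 6.45 in F and I, and in Ly6c2 monocyte-like cells to 2.18 and 4.49 in A and B and 4.36 and 12.5 in F and I. The states with most Helios transcript in wild type were nearly empty in the mutant libraries: cluster 5 held 6 and 3 cells in A and B, and the basophil/mast-like state 27 and 29.

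In wild type the ends of the Spi1 order were opposite to those of Ikzf2. Over the 44 sums of a library and a state with at least 50 cells, Pearson r was 0.13 for this pair and -0.05 for Spi1 with Myb. These sums include the erythroid-like state of F, at 5.31 CPM of Spi1 and 0 of Ikzf2, and its weight in r was not tested. Spi1 was highest in Csf1r monocyte-like cells, at 566 and 609 CPM in A and B and 551 and 618 in F and I. Of the wild-type states read it was lowest in cluster 5, at 187 and 183 in F and I. HSPC-like cells lay between, at 270 and 273 CPM in A and B and 244 and 252 in F and I. The erythroid-like state of F and I held 3 and 0 Spi1 UMIs in all. Spi1 was thus found in every state read, and was at or near 0 in the erythroid-like cells.

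In cluster 3, where Cad and Atp2a2 were among the genes most raised over other cells, Cebpa stood at 37.1 and 73.0 CPM in A and B, against 78.0 and 80.5 in F and I. The 2 Gata2-77-/- libraries differed from each other there, and in wild type this was the state with most Cebpa, followed by basophil/mast-like cells at 65.6 and 67.02. Among states read in A and B, Runx1 was highest in cluster 16, whose cells had median depths of only 2409.5 and 2091 UMIs, at 157 and 148 CPM. Cluster 13, a Flt3 and Irf8 state filled mostly in Gata2-77-/- libraries, followed at 134 and 117. Cluster 16 carried the multipotent markers Hlf, Meis1, Sox4 and Hmga2 but is not part of the HSPC-like class. Among states read in F and I Runx1 was highest in cluster 5, at 127 and 107 CPM. Its lowest level among these states was in primary-granule-like cells, at 32.6 and 35.1. The erythroid-like state, not among them, held 9 and 2 Runx1 UMIs in F and I. Ikzf1 had Gata2-77-/- state means between 60.1 CPM in cluster 1 and 133 in cluster 16, and wild-type state means between 44.5 CPM in basophil/mast-like cells and 89.9 in HSPC-like cells.

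**Figure D3:**
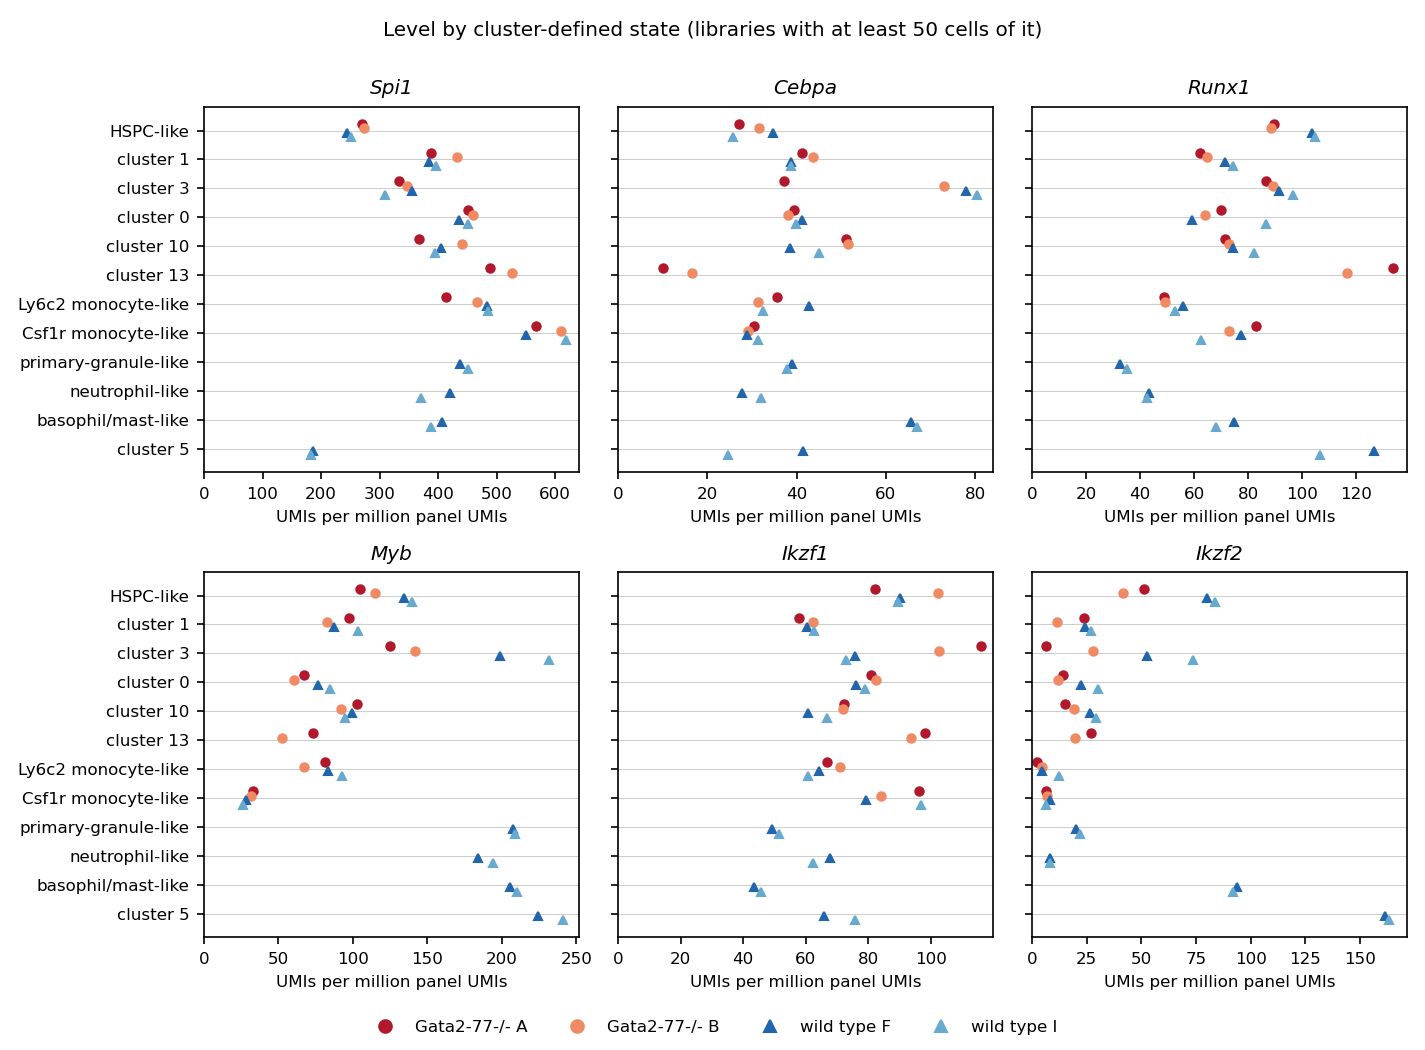
Level of each gene in CPM of the table's UMIs (x axis) by state (y axis), 1 point per library with at least 50 cells of that state; Gata2-77-/- libraries A and B are circles, wild-type libraries F and I triangles. Cluster 9, cluster 16 and the erythroid-like state are not drawn. Among the states drawn, Spi1 is highest and Myb lowest in Csf1r monocyte-like cells. Ikzf2 is low in both monocyte-like states and highest in cluster 5, which only the wild-type libraries fill.

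Within HSPC-like cells the falls of Ikzf2 and Myb were also seen. Ikzf2, at the levels given above, had a ratio of 0.569 (log2 fold change -0.87, SE 0.12, edgeR adjusted p = 0.0162). Myb stood at 105 and 115 CPM in A and B, against 134 and 139 in F and I (-0.37, SE 0.06, edgeR adjusted p = 0.0251). For each gene both Gata2-77-/- libraries were below both wild-type ones, and 2 members were called where 1.85% of 3568 genes were called in either direction and 49.3% did not overlap. Runx1 stood at 89.8 and 88.6 CPM, against 104 and 105, without overlap, and did not pass (-0.28, SE 0.07, edgeR adjusted p = 0.106). Spi1 (0.08, SE 0.08), Cebpa (-0.09, SE 0.17) and Ikzf1 (-0.01, SE 0.09) had edgeR adjusted p-values of 0.623, 0.819 and 0.959.

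Both calls depended on which cells were counted as HSPC-like. Among HSPC-like cells, the 5 measured basophil/mast markers summed to 45.9 and 46.2 CPM in A and B, against 103 and 107 in F and I, and the 9 measured neutrophil markers to 141 and 137, against 291 and 208. The 18 measured erythroid markers overlapped, at 447 and 477 CPM in A and B and 402 and 456 in F and I, with Car1 and Ermap at 0 in every library. Cells with no UMI of Gata1, Klf1, Car1, Cpa3 or Ms4a2 were 98.1% and 98.2% of HSPC-like cells in A and B, against 82.2% and 81.6% in F and I. In them Ikzf2 stood at 51.6 and 40.4 CPM in A and B, against 64.5 and 64.0 in F and I, and the log2 fold change was -0.54 (edgeR adjusted p = 0.186). Myb stood at 106 and 115 CPM, against 127 and 128 (-0.26, edgeR adjusted p = 0.141). Both genes were lower in both Gata2-77-/- libraries and neither passed, in a subset chosen after the data had been seen. Over all alternatives the adjusted p ran from 1.43e-12 to 0.395 for Ikzf2 and from 0.00371 to 0.401 for Myb, in edgeR or DESeq2. Myb also lost its call without wild-type library I (edgeR adjusted p = 0.150), and Runx1 gained one without library A (edgeR adjusted p = 0.0428).

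The 3 clusters behind the HSPC-like class did not contribute alike. In cluster 14 Ikzf2 stood at 52.9 and 51.0 CPM in A and B, against 102 and 134 in F and I. In cluster 8 it was 54.0 and 39.2, against 64.3 and 64.0, and in cluster 7 it was 48.4 and 36.9, against 74.6 and 49.6. The wider gap was thus in cluster 14, and in every one of the 3 both Gata2-77-/- libraries were lower. Myb stood at 150 and 147 CPM in cluster 14 of A and B, against 174 and 182 in F and I, and was also without overlap in clusters 7 and 8. No test was made within single clusters of the class.

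**Figure D4:**
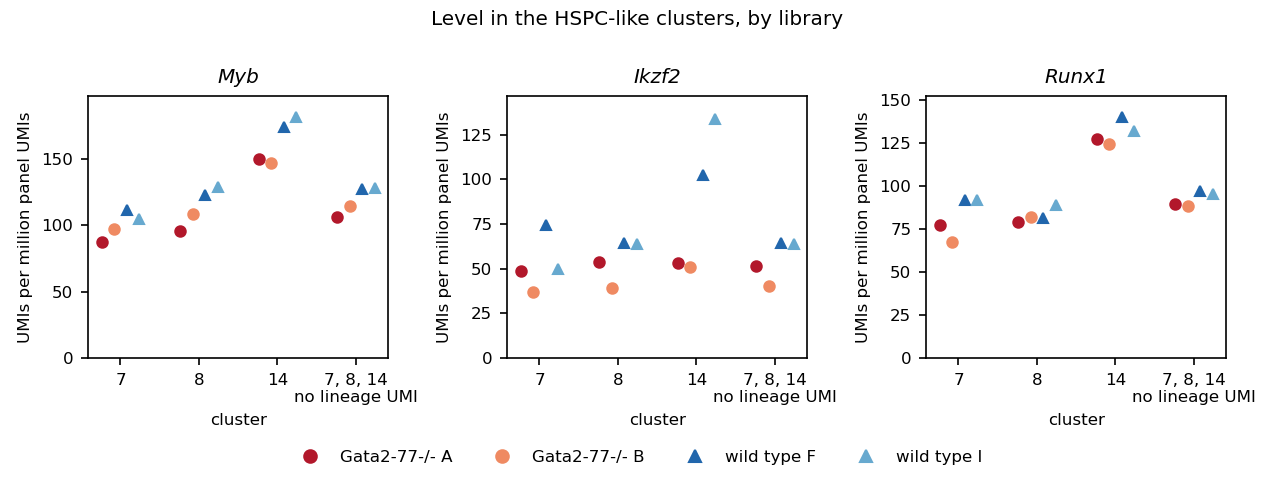
Level of Myb, Ikzf2 and Runx1 (CPM of the table's UMIs) in the 3 HSPC-like clusters and in the HSPC-like cells with no UMI of 5 erythroid or mast genes; Gata2-77-/- libraries A and B are circles and wild-type libraries F and I triangles. In cluster 14 Ikzf2 is 52.9 and 51.0 in A and B against 102 and 134 in F and I.

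Outside the HSPC-like class 1 more call was made. In cluster 3 Myb stood at 125 and 141 CPM in A and B, against 198 and 231 in F and I, without overlap (log2 fold change -0.78, SE 0.12, edgeR adjusted p = 0.0192), where 0.594% of 3536 genes were called and 48.8% did not overlap. Ikzf2 there was 6.18 and 27.9 CPM, from 5 and 31 UMIs, against 52.6 and 73.8, and did not pass (-1.85, SE 0.38, edgeR adjusted p = 0.0646). The same state had basophil/mast markers at 103 and 83.8 CPM in A and B, against 182 and 231 in F and I, and the part of such cells in these values was not tested. The Myb call was lost without library B (edgeR adjusted p = 0.0874) and in thinned cells (edgeR adjusted p = 0.135), within a range of 4.50e-05 to 0.135. Ikzf2 passed without library B (-3.38, edgeR adjusted p = 0.0159), without F (adjusted p = 1.10e-06) and without I (adjusted p = 0.000503), and its values ranged up to 0.780.

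In the other 5 states tested no member passed in edgeR or DESeq2, and 3 of 30 values had an unadjusted edgeR p under 0.05. An unadjusted p under 0.05 was held by 297 of all 3543 genes tested in Ly6c2 monocyte-like cells and 456 of 3536 in Csf1r monocyte-like cells. It was held by 322 of 3525 in cluster 0, 276 of 3542 in cluster 1 and 352 of 3523 in cluster 10. Of all genes tested, edgeR called 0.226% in Ly6c2 monocyte-like cells, 0.82% in Csf1r monocyte-like cells, 0.0851% in cluster 0, 0% in cluster 1 and 0.312% in cluster 10. Ikzf2 had a negative log2 fold change in all 7 states, from -1.85 to -0.15. Myb ran from -0.78 in cluster 3 to 0.26 in Csf1r monocyte-like cells, Runx1 from -0.28 to 0.18, Cebpa from -0.57 to 0.28, Ikzf1 from -0.05 to 0.45 and Spi1 from -0.13 to 0.08. In Csf1r monocyte-like cells Myb stood at 32.7 and 31.6 CPM in A and B, against 28.5 and 26.3 in F and I, which was the opposite order to that in HSPC-like cells and did not pass (edgeR adjusted p = 0.623).

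Whether the effect of genotype differed between states was tested for all 21 pairs of these 7 states, and 6 of 126 differences passed, where 2.44% of all differences tested in all genes passed. The Myb effect was higher in Csf1r monocyte-like than in HSPC-like cells by 0.62 on the log2 scale (SE 0.19, edgeR adjusted p = 0.0146), where 13.7% of genes passed. It was lower in cluster 3 than in Csf1r monocyte-like cells by a difference of -1.02 (SE 0.22, edgeR adjusted p = 0.000187), where 7.12% passed, than in cluster 1 by a difference of -0.67 (SE 0.15, adjusted p = 0.0372), where 1.83% passed, and was higher in cluster 10 than in cluster 3 by 0.71 (SE 0.17, adjusted p = 0.0374), where 1.15% passed. Ikzf2 differed between cluster 3 and Csf1r monocyte-like cells (-1.75, SE 0.49, edgeR adjusted p = 0.0116). Runx1 differed between Csf1r monocyte-like and HSPC-like cells by 0.45 (SE 0.14, edgeR adjusted p = 0.0169), though in neither state alone did it pass. No difference passed in edgeR for Spi1, Cebpa or Ikzf1, for which 2, 3 and 4 of 21 pairs had an unadjusted p under 0.05. The share of all genes with such an unadjusted p was not computed for these pairs. Of the 6 differences only that of Myb between cluster 3 and Csf1r monocyte-like cells passed without each of the 4 libraries, at -1.24 to -0.83.

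**Figure D5:**
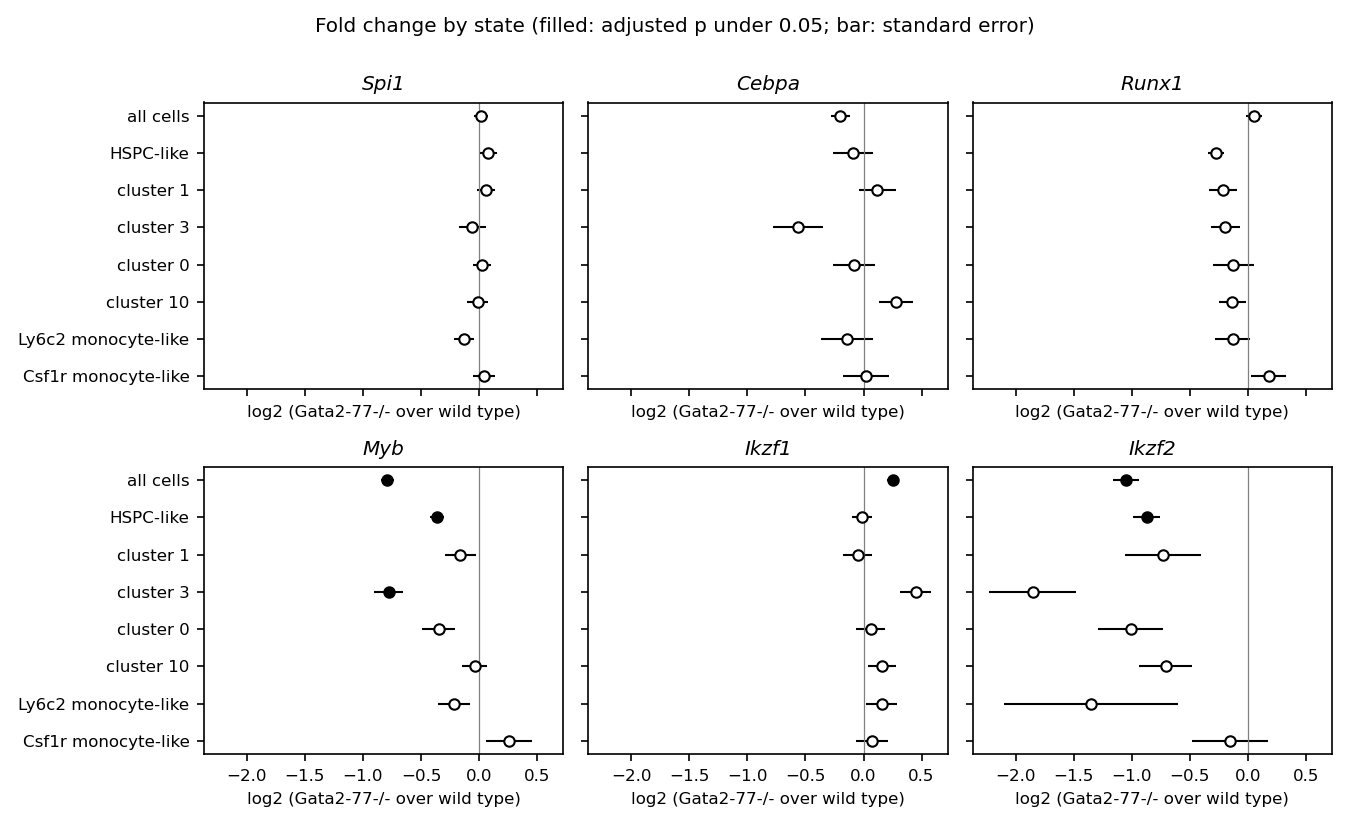
Log2 fold change, Gata2-77-/- over wild type, of each gene over all cells and in the 7 states tested; bars are standard errors and filled points have an edgeR adjusted p under 0.05. Myb is filled over all cells, in HSPC-like cells and in cluster 3, Ikzf2 over all cells and in HSPC-like cells, and Ikzf1 over all cells only.

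Levels were also computed at the same mix of the 7 tested states in every library, which held 75.7% and 82.1% of cells in A and B and 46.8% and 60.1% in F and I. At that mix Myb stood at 88.1 and 88.5 CPM in A and B, against 104 and 112 in F and I, a ratio of 0.818 where the plain sums gave 0.599. Ikzf2 stood at 25.05 and 22.8 CPM, against 41.7 and 46.7, a ratio of 0.542 where the plain sums gave 0.499. The gap of Myb was thus smaller at a fixed mix of these states, and that of Ikzf2 was nearly as wide. Runx1 turned, as its ratio was 0.915 at the fixed mix, with 77.6 and 75.8 CPM in A and B against 83.4 and 84.3 in F and I, and 1.07 in the plain sums. Ikzf1 had a ratio of 1.08, Spi1 1.02 and Cebpa 0.949. Exact two-sided permutation gave p = 0.333 for Myb, Ikzf2, Runx1 and Ikzf1 and 0.667 for Spi1 and Cebpa.

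With the cells of all states pooled, those with a Gata2 UMI also carried Ikzf2 more often. At 4346 UMIs 27.5% of 69 such cells in A and 14.9% of 74 in B had an Ikzf2 UMI, against 40.4% of 267 in F and 43.0% of 172 in I. Cells without a Gata2 UMI had it in 9.33% and 9.35% of A and B, against 13.2% and 15.2% of F and I. The share was thus higher beside Gata2 in all 4 libraries, and lower in the Gata2-77-/- libraries in both kinds of cell. Runx1 showed the same order within libraries, at 39.1% and 47.3% of Gata2-detected cells in A and B and 37.5% and 41.3% in F and I, against 28.0% and 27.2% and 23.9% and 26.1% of the others. Myb was also found more often beside Gata2 in all 4 libraries, Spi1 and Ikzf1 less often, and Cebpa in both directions. Within HSPC-like cells alone, Ikzf2 was found in 40% and 20% of Gata2-detected cells in A and B and 42.4% and 45% in F and I. The other HSPC-like cells had it in 18.1% and 16.4% of A and B and 25.7% and 24.3% of F and I. A cell without a Gata2 UMI at this depth may still hold Gata2 transcripts.

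Pairs of members were read in the same cell at 4346 UMIs, against the product of their separate shares. For Spi1 with Cebpa the share of cells with both was 0.989 to 1.05 times the product of the single shares in the 4 libraries. Of 15 pairs 3 were above the product in all 4 libraries. Runx1 with Ikzf2 stood at 1.15 and 1.24 times in A and B and 1.42 and 1.48 in F and I, Myb with Ikzf2 at 1.18 to 1.26 times and Cebpa with Myb at 1.05 to 1.17 times. Within HSPC-like cells these ranges came to 0.984 to 1.15, 0.935 to 1.10 and 0.922 to 1.27. Under the product in all 4 libraries were Spi1 with Ikzf2, at 0.848 to 0.923 times, Spi1 with Myb, at 0.939 to 0.992, and Spi1 with Runx1, at 0.978 to 0.987. Within HSPC-like cells each of these 3 ranges reached above 1, and that of Spi1 with Ikzf2 was 0.887 to 1.05.

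Over the 44 sums of a library and a state, genes with the most similar log2 level were Alox5ap, Emb and Tnfrsf1a for Spi1 (Pearson r 0.97 for Alox5ap), Mlec, Mapkapk3 and Ptma for Cebpa (0.85 for Mlec), and Atp13a2, Tmsb10 and Rere for Runx1 (0.88 for Atp13a2). They were Vat1, Nkg7 and Gm20342 for Myb (0.91 for Vat1), Qk, Cript and Mbnl1 for Ikzf1 (0.78 for Qk) and Mtf2 and Dapp1 for Ikzf2 (0.91 for Mtf2). Alox5ap serves leukotriene synthesis, and Nkg7 is a granule membrane protein. Among the members, r was 0.70 for Runx1 with Ikzf2 and 0.63 for Myb with Ikzf2. Sums of the same library share its depth and preparation, so these values are descriptions. The erythroid-like sum of F, at 5.31 CPM of Spi1, 15.9 of Runx1 and 0 of Ikzf2, is among the 44. Its weight in these values was not tested.

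Of 8 measured relatives and DNA-binding partners of the 6 factors, 1 rose and 2 fell over all cells, where 2.76% of all genes rose and 6.1% fell. Irf8, the partner of PU.1 in monocyte and dendritic progenitors, stood at 255 and 257 CPM in A and B, against 153 and 141 in F and I (log2 fold change 0.75, SE 0.09, edgeR adjusted p = 0.00980). Cebpe, the C/EBP factor of later granulocytes, stood at 25.8 and 25.05 CPM, against 215 and 167, and Gfi1, a granulocyte repressor, at 5.82 and 4.57, against 18.0 and 14.9 (edgeR adjusted p = 0.00312 and 0.0207). Cbfb, Cebpg, Mybl2, Etv6 and Junb did not pass. Irf8 and Gfi1 missed the threshold without library A (edgeR adjusted p = 0.0592 and 0.0917), as did Gfi1 without library B (0.152). None of 12 measured coactivator and corepressor subunits, among them the NuRD subunits Hdac1, Hdac2 and Rbbp4, passed in edgeR or DESeq2 or had an unadjusted edgeR p under 0.05, over all cells, with a median log2 fold change of 0.01 beside 0.00 over all genes tested. Within HSPC-like cells none of them passed in edgeR or DESeq2, and the median was -0.11 beside -0.01. There 5 of 12 had an unadjusted edgeR p under 0.05, as did 651 of all 3568 genes tested. Over all cells 888 of all 3622 genes tested had such a p.

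Textbook targets of the factors moved in both directions over all cells, where 2.76% of all genes rose and 6.1% fell. Of 10 PU.1 targets Csf1r, the receptor of macrophage colony-stimulating factor, rose (50.2 and 45.1 CPM in A and B, against 29.6 and 30.8 in F and I, edgeR adjusted p = 0.0245), and Fcgr3, Csf2ra and Ncf4 fell, while Spi1 did not pass. All 5 measured C/EBP-alpha targets, Cebpe, Gfi1, Elane, Mpo and Prtn3, fell, with a median log2 fold change of -1.72, and each is also a granule or granulocyte gene of the states nearly empty in A and B. Within HSPC-like cells Cebpe and Elane of these 5 were called lower (edgeR adjusted p = 0.0247 for each), where 1.23% of all genes fell. The median of the 5 there was -0.82 beside -0.01 over all genes tested, and no PU.1 target was called there. Over all cells, of 8 RUNX1 targets Hmga2 and Csf1r rose and Gfi1, Elane and Mpo fell. Of 7 MYB targets Cd34 and Bcl2 rose and Elane and Mpo fell: Cd34 stood at 306 and 333 CPM in A and B, against 186 and 210 in F and I (edgeR adjusted p = 0.01005). Several genes stand in more than 1 of these lists. Of the 18 genes called among those named for the lists, 5 passed without library A, 10 without B, 15 without F and 14 without I, and the sign was the same in all of them. Without A the calls left among these targets were falls of Fcgr3, Cebpe and Mpo. Csf1r also missed the threshold without F (edgeR adjusted p = 0.0547) and without I (0.0537).

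Of 20 measured lineage and stem cell factors Mef2c rose and Gata1, Gata2 and Klf1 fell over all cells, against the same shares of all genes as above. Without library A only Mef2c of them passed, and without B only the 3 falls did (edgeR). Within HSPC-like cells Gata1, Gata2, Bcl11a and Hhex fell and none rose, where 1.23% of all genes fell and 0.617% rose, and without library I Gata1 and Gata2 passed. Lymphoid priming genes, which Ikaros and PU.1 act on, read differently by scope. Over all cells Mef2c and Notch1 rose among 8 measured. Within HSPC-like cells Bcl11a, Ebf1 and Satb1 were among the genes that fell and none rose, with a median of -0.44 beside -0.01 over all genes tested. Without library I, Bcl11a, Ebf1 and Satb1 did not pass there (edgeR). Over all cells Mef2c did not pass without B. Notch1 did not pass without A, without B or without I, at log2 fold changes of 0.53, 0.59 and 0.48. In the same HSPC-like cells Ikzf1 had a log2 fold change of -0.01.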

How the data were processed

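The deposited table holds counts, whole-number UMIs of 3624 genes in 9960 cells, 4980 per genotype, without a header or cell barcodes, so barcodes shared between libraries could not be counted. Cell Ranger 2.0.2, Seurat 2.3.4 and mm10 are named in the submitters' processing notes, and how genes and cells were chosen is not given in the sources used here. The deposited grouping file gives genotype and library letter. The 6 genes and all lists were chosen with earlier results of these data known.

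Library sums of UMIs, after filterByExpr and TMM scaling, entered the two-sided quasi-likelihood test of edgeR 4.0.16 under R 4.3.3, with Benjamini-Hochberg adjustment over all genes tested and a threshold of 0.05. The same fit ran within states of 50 or more cells in every library, and with the library as a factor for differences between states. For the states, Leiden clusters at resolution 1 (scanpy 1.11.5) were built on 30 principal components of 1000 variable genes, leaving out the 6 members and Xist, with 15 neighbours and 10000 counts per cell. A cluster took a list's name with at least 3 markers, each in 10% of its cells and 2-fold above the rest. That list alone also had to lead in number of markers, in share of its measured markers and among the 10 leading genes. Cluster 5 and cluster 16 held 3 or more markers of a list but did not meet this, and stayed unnamed. No doublet caller was run. The level at a fixed mix weights the 7 tested states by their mean share. Named genes are the 6 members, up to 4 genes of each list with the smallest p, the 3 genes most like each member (at least 20 CPM on average, log2 of CPM plus 1) and Gata2. Likeness ran over 3477 genes. Some genes that this rule names are not reported here. Coordinates are from GENCODE M21. Levels of different genes are not compared, since UMI capture differs between transcripts.

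On simulated data with 200 genes changed, 48% to 78% of 1.5-fold changes were recovered within states, and 0 to 6 unchanged genes were called. Alternatives were DESeq2 1.42.0 size factors and Wald test, library totals, no filter, equal cells per library, a term for Xist, thinned cells, other clusterings, other seeds and depths, other weights, and each library left out. Leaving out cells above the 98th percentile of UMIs, and HSPC-like cells with lineage UMIs, was added after the data had been seen.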

Additional observations from a re-analysis of the deposited data

Results flagged for a closer look

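The effect of genotype on Myb, Runx1 and Ikzf2 differed between states by a test of the difference itself, with edgeR and adjustment over all genes. For Myb the difference of the log2 fold change, Gata2-77-/- over wild type, was 0.62 between Csf1r monocyte-like and HSPC-like cells, -1.02 between cluster 3 and Csf1r monocyte-like cells, -0.67 between cluster 3 and cluster 1, and 0.71 between cluster 10 and cluster 3. For Runx1 it was 0.45 between Csf1r monocyte-like and HSPC-like cells. For Ikzf2 it was -1.75 between cluster 3 and Csf1r monocyte-like cells, where Ikzf2 rested on 17 and 19 UMIs in A and B and 20 and 13 in F and I. Basophil/mast markers summed to 103 and 83.8 CPM in cluster 3 of A and B, against 182 and 231 in F and I, and to 59.2 and 55.3, against 64.0 and 60.5, in Csf1r monocyte-like cells. Their part in these differences was not tested.
Without library A, 5 of the 6 differences missed the threshold, with edgeR adjusted p-values of 0.310 and 0.421 for Myb and Runx1 between Csf1r monocyte-like and HSPC-like cells, 0.435 for Ikzf2, 0.149 for Myb between cluster 3 and cluster 1, and 0.457 for Myb between cluster 10 and cluster 3. Without library I the same differences had adjusted p-values of 0.158, 0.325, 0.177, 0.135 and 0.108. Without library B that of Myb between Csf1r monocyte-like and HSPC-like cells was 0.0811, that of Runx1 0.103 and that of Myb between cluster 10 and cluster 3 was 0.196. Myb between cluster 3 and Csf1r monocyte-like cells had adjusted p-values of 0.000106 to 0.0441 over the alternatives run.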

How the results depend on the processing

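Of 497 comparisons of 52 results with an alternative, 380 kept direction and side of the threshold or, for counts of called genes, a similar number. Detection and fixed-mix results, whose smallest exact permutation p is 0.333, could not cross the threshold, so only their direction could change. A further 221 comparisons of Spi1, Cebpa, Ikzf1 and Runx1 within states other than HSPC-like were counted apart. In 19 of them the sign was opposite, and in 0 the side of the threshold changed. Over all cells, Ikzf1 in thinned cells had a log2 fold change of 0.23 and missed the threshold, and DESeq2's Wald test called 734 genes. In HSPC-like cells Ikzf2 missed the threshold at -0.59 at Leiden resolution 0.5, -0.42 with states by marker list and -0.54 without lineage UMIs. Myb missed it there at -0.31 with library totals, -0.36 with DESeq2's Wald test, -0.34 in thinned cells, -0.36 at resolution 0.5, -0.23 by marker list and -0.26 without lineage UMIs. Cebpa turned to 0.020 in thinned cells, 0.17 by marker list and 0.055 without lineage UMIs. Ikzf1 turned to 0.043 with library totals, 0.024 in thinned cells, 0.015 at resolution 0.5, 0.0046 in clusters of thinned cells and 0.019 by marker list. HSPC-like calls numbered 104 with library totals, 34 in thinned cells, 9 at resolution 0.5, 4 by marker list and 17 without lineage UMIs. Myb turned to -0.28 in Csf1r monocyte-like cells at resolution 0.5 and to 0.053 in cluster 10 in thinned cells. The cause of these changes was not tested.

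In thinned cells 5 differences between states missed the threshold: 0.66 for Myb and 0.33 for Runx1 (Csf1r monocyte-like minus HSPC-like), -1.71 for Ikzf2 (cluster 3 minus Csf1r monocyte-like), and -0.67 (cluster 3 minus cluster 1) and 0.76 (cluster 10 minus cluster 3) for Myb. Differences in detection, in percentage points, turned to -5.08 for Spi1, -17.7 for Runx1 and -15.0 for Ikzf1 without thinning, and to 1.37 for Cebpa and -1.25 for Runx1 at the median depth.

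With each library left out, log2 fold changes over all cells ran from -0.019 to 0.041 for Spi1, 0.23 to 0.26 for Ikzf1 and -0.023 to 0.12 for Runx1. In HSPC-like cells they ran from -0.29 to 0.15 for Cebpa, -0.39 to -0.34 for Myb, -0.14 to 0.10 for Ikzf1 and -0.32 to -0.22 for Runx1. Elsewhere they ran from -0.33 to 0.091 for Ikzf2 in Csf1r monocyte-like cells, and for Myb from -0.28 to 0.027 in cluster 1 and -0.14 to 0.086 in cluster 10. Calls ran from 66 to 291 over all cells and 56 to 271 in HSPC-like cells. Csf1r monocyte-like minus HSPC-like differences ran from 0.52 to 0.74 for Myb and 0.29 to 0.66 for Runx1. Cluster 3 minus Csf1r monocyte-like ran from -3.19 to -1.15 for Ikzf2. Cluster 3 minus cluster 1 ran from -0.90 to -0.53 and cluster 10 minus cluster 3 from 0.57 to 0.93, both for Myb. The Cebpa detection difference ran from -1.47 to 0.85 points, and log2 ratios at the fixed mix from -0.022 to 0.080 for Spi1 and -0.17 to 0.011 for Cebpa. A genotype left with 1 library was taken to vary like the other.

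No paired analysis was possible because no library letter is tied to a sample number. Resolution 0.5 gave no Ly6c2 monocyte-like class, clusters of thinned cells left Csf1r monocyte-like cells with 49 cells in library I, and marker lists were used for HSPC-like cells alone. Library totals moved the median gene by 0.05 on the log2 scale. With 2 libraries per genotype and fewer UMIs in the Gata2-77-/- ones, small changes were seldom detected: on simulated data of these libraries 15% of 1.25-fold changes were recovered over all cells and 21% in HSPC-like cells.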
